A study of Homo sapiens with 6 samples.

Results

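The genes described here are 9 lung lineage factors and alveolar markers, chosen by name from the 27968 genes in the tables. They are the transcription factor genes NKX2-1, FOXA1, FOXA2, GATA6, SOX2 and SOX9 and the alveolar type 2 cell genes ABCA3, LAMP3 and SFTPB, and every one is listed in the tables. RNA came from H23 cells, an established human lung adenocarcinoma line grown in RPMI with serum. One group of 3 libraries was transfected with a control siRNA and another group of 3 with an siRNA that targets HOTAIR-N. HOTAIR is a long non-coding RNA of the HOXC locus, and HOTAIR-N is the name the labels give to the targeted form. Both groups had the same transfection reagent (RNAiMAX), and RNA was taken 48 hours later. Each library is 1 of 3 independent transfections of the same line per siRNA, so errors are those between transfections and no second cell line or second siRNA sequence was analysed here.

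In the developing lung, NKX2-1 marks the respiratory endoderm and, with the pioneer factors FOXA1 and FOXA2 and the zinc finger factor GATA6, drives the genes of distal epithelium. SOX2 marks the proximal airway and SOX9 the branching distal tips. Alveolar type 2 cells make surfactant, a mix of phospholipid and proteins that keeps alveoli open: ABCA3 pumps phospholipid into lamellar bodies, the organelles that store surfactant, LAMP3 is a membrane protein of those organelles that is also found in mature dendritic cells and is induced by interferon, and SFTPB is surfactant protein B. NKX2-1 is used in pathology as a marker of lung adenocarcinoma, and its loss is known in part of these tumours.

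Since NKX2-1 and ABCA3 were both higher after HOTAIR-N siRNA, the DNA around their start sites is shown first. The windows are RefSeq promoters of build GRCh38.p14 (250 bases before to 50 after the start), and the deposited tables use hg19, so no position below was matched to the counts. Of the 9 genes, 6 have 8 windows in that table, and FOXA2, SOX9 and LAMP3 are not in it. All 3 windows printed lie on the minus strand and read 5′ to 3′, with 1 start site 137 nt and the others 4 nt and 7 nt from the start of the isoform named. Capitals mark the words searched on both strands. They were CTCAAG for the NKX2-1 core, TGTTTAC for the forkhead (FOXA) core, AGATAA for the core of GATA factors (TTATCT on the other strand) and ACAATG for the core of SOX factors. No matches overlap each other here.
NKX2-1, chr14:36519507-36519806, nearest to NM_003317: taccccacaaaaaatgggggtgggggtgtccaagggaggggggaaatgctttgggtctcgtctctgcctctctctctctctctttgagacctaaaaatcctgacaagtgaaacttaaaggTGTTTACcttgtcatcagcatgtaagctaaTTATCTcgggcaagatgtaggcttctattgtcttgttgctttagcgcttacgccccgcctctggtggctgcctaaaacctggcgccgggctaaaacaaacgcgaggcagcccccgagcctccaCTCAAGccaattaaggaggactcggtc
NKX2-1, chr14:36520183-36520482, nearest to NM_001079668: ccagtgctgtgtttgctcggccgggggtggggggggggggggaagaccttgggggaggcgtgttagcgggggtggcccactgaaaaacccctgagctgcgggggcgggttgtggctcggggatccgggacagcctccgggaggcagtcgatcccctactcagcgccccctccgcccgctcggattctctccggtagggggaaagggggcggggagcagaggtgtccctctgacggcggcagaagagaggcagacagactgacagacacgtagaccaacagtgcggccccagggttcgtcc
ABCA3, chr16:2340679-2340978, nearest to NM_001089: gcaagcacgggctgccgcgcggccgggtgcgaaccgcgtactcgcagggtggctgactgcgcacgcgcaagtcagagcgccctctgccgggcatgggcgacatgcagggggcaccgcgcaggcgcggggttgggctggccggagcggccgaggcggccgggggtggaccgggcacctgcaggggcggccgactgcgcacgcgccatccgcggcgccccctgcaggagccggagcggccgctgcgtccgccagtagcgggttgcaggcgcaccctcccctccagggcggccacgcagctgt

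The first NKX2-1 window holds a FOXA word 130 bases and a GATA word 100 bases before the start, and an NKX2-1 word 24 bases after it. The second NKX2-1 window and the ABCA3 window hold none of the 4 words. Among the other windows, that of FOXA1 holds an NKX2-1 word 46 bases before its start. Over 35116 windows of the same length, the NKX2-1 word was in 12.36%, the FOXA word in 3.423%, the GATA word in 10.33% and the SOX word in 10.78%. Over the 8 windows of the 9 genes they were in 2, 1, 1 and 0. A match is only a run of letters, and binding was not measured.

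HOTAIR was lower in every HOTAIR-N siRNA library. No isoform in the tables carries the name HOTAIR-N, so the value is that of HOTAIR as annotated and not of the targeted form alone. It had expected counts (RSEM's estimate of the reads of a gene) of 169, 148 and 202 with control siRNA, against 88, 74 and 82 with HOTAIR-N siRNA. It fell by 1.04 on the log2 scale (SE 0.14, edgeR quasi-likelihood test, adjusted p = 1.32e-05). Libraries held 32715361 to 36578681 expected counts, so that 3 counts, the upper limit that a count of 0 allows, were 0.082 to 0.0917 CPM (counts scaled to the library's size). No pair of replicates agreed within sampling noise, and control replicate 1 stood farthest from its group, with a chi-square per degree of freedom of 14.9 and 13.5 against the other control libraries and 7.11 between those. In the HOTAIR-N siRNA group replicate 1 stood farthest, with 5.94 and 4.19 against the others and 2.10 between those. Of 15072 genes tested, 57.5% passed an adjusted p of 0.05: 28.7% rose and 28.8% fell with HOTAIR-N siRNA. The CPM of the siRNA groups did not overlap for 62.9% of tested genes.

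Against that background, 3 of the 9 genes rose, none fell, 4 did not pass and 2 had too few counts to be tested. Those that rose were NKX2-1 (2.03-fold), LAMP3 (1.58-fold) and ABCA3 (1.54-fold), and in each of them the lowest HOTAIR-N siRNA library was above the highest control library. FOXA1, GATA6, SOX2 and SOX9 overlapped between the groups. The median log2 fold change of the 7 tested genes was 0.25, beside 0.01 for all tested genes. Among transcription factors 1 of 5 tested rose, and among alveolar markers both of those tested. With 57.5% of all genes called, these counts are not particular to the 9 genes. A change in the number of cells that express a gene and a change in RNA per cell cannot be told apart in bulk RNA.

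**Figure D1:**
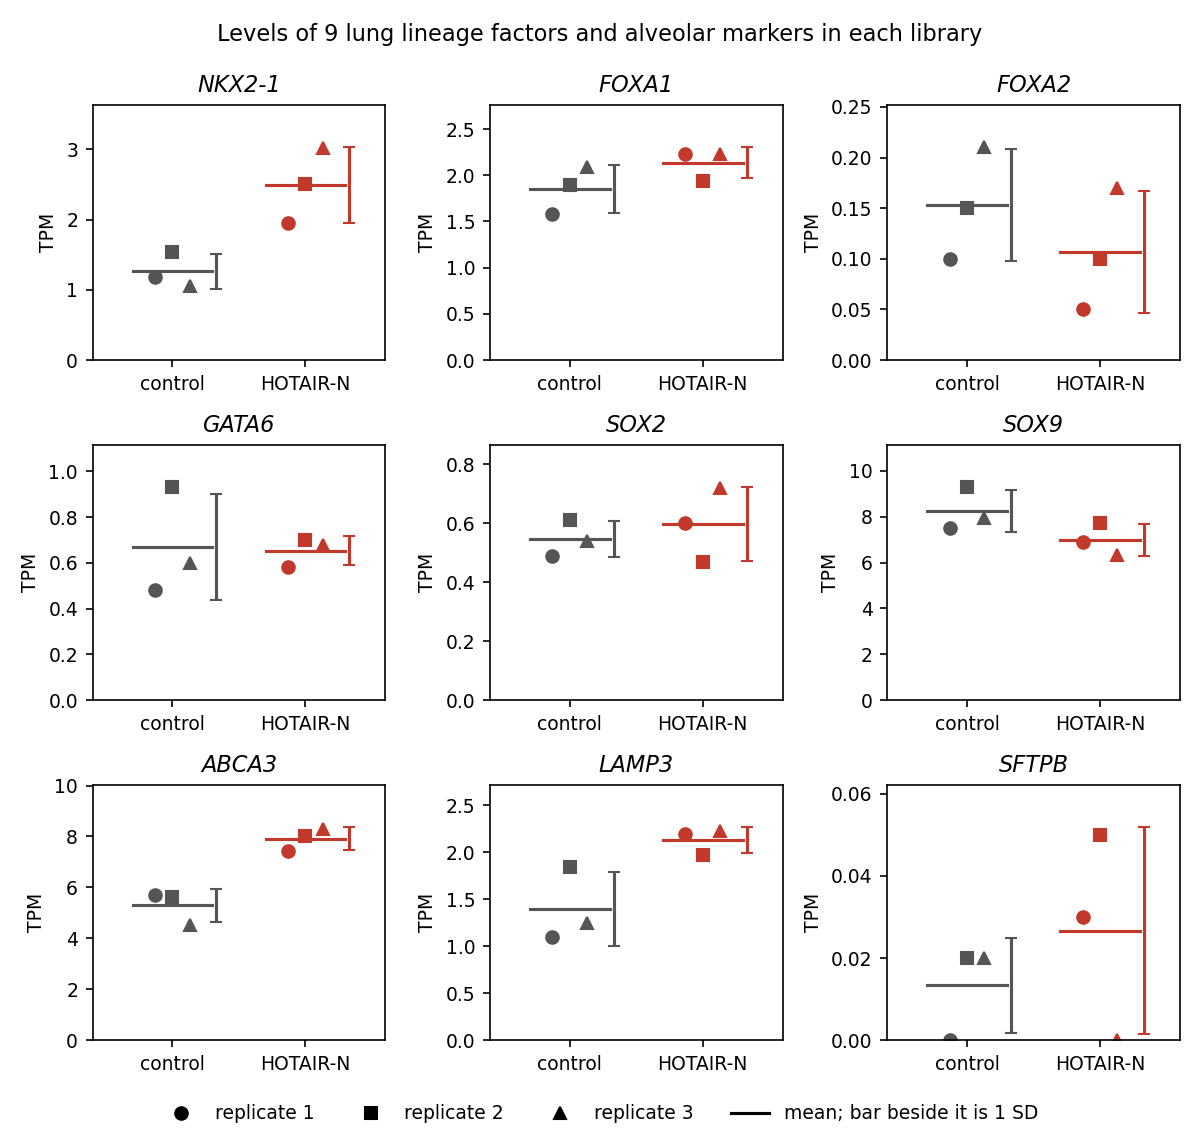
Length-adjusted level (TPM) of each of the 9 genes in each library, with replicates as symbols, the group mean as a line and 1 SD as a bar, on a separate axis per gene that starts at 0. NKX2-1, ABCA3 and LAMP3 are higher in all 3 HOTAIR-N siRNA libraries, SFTPB stays at or below 0.05 TPM and the others overlap.

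NKX2-1, the homeodomain factor that marks lung and thyroid epithelium, was expressed at a low level and doubled. In TPM, which adjusts for gene length, it stood at 1.19, 1.54 and 1.06 with control siRNA and at 1.95, 2.51 and 3.02 with HOTAIR-N siRNA. These values rest on 43.41 to 56.54 expected counts per control library and 74.23 to 119.64 per HOTAIR-N siRNA library. All 3 libraries of the HOTAIR-N siRNA group were above all controls. The SD was 0.25 TPM with control siRNA and 0.54 TPM with HOTAIR-N siRNA (n = 3 each), and the SD of CPM as a percent of its mean was 16.1% and 19.7%. The mean went from 1.26 to 2.49 TPM, with a log2 fold change of 1.02 (SE 0.18, 95% interval 0.64 to 1.41, edgeR adjusted p = 0.000196). Of all tested genes, 4.13% had a larger log2 fold change. Without control replicate 1 the log2 fold change was 1.01 (edgeR adjusted p = 0.000555). With 1 library left out it was smallest without HOTAIR-N replicate 3, at 0.88 (edgeR adjusted p = 0.00124). A permutation of the libraries of 3 against 3 cannot give an exact two-sided p below 0.1. NKX2-1 was the only one of the 9 genes that also passed a test against a fold of 1.5 (edgeR adjusted p = 0.0331).

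FOXA1, a forkhead pioneer factor that opens chromatin for other factors, did not pass. Its TPM was 1.58, 1.89 and 2.09 with control siRNA and 2.23, 1.94 and 2.23 with HOTAIR-N siRNA, so that the lowest HOTAIR-N siRNA library lay inside the control range. Its log2 fold change was 0.25 (SE 0.13, 95% interval -0.03 to 0.53, edgeR adjusted p = 0.122). FOXA2, the second forkhead factor of lung endoderm, was nearly absent: it had 4, 6 and 9 counts with control siRNA and 2, 4 and 7 with HOTAIR-N siRNA. At 19 against 13 counts in all, it was left out of the test by the filter on low counts. A difference in FOXA2 was not detectable at this depth.

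GATA6, a zinc finger factor of endoderm and distal lung, had 0.48, 0.93 and 0.6 TPM with control siRNA and 0.58, 0.7 and 0.68 with HOTAIR-N siRNA. The control libraries span the whole HOTAIR-N siRNA range, and the highest and lowest values are both controls. Its log2 fold change was 0.01 (SE 0.22, edgeR adjusted p = 0.971), with a wide 95% interval of -0.46 to 0.48. SOX2, a factor of proximal airway and of squamous tumours, stood at 0.49, 0.61 and 0.54 TPM with control siRNA and 0.6, 0.47 and 0.72 with HOTAIR-N siRNA. Here the HOTAIR-N siRNA libraries include the lowest and the highest value. Its log2 fold change was 0.18 (SE 0.24, 95% interval -0.33 to 0.69, edgeR adjusted p = 0.537).

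SOX9, a factor of the distal lung tip and of many carcinomas, was the most abundant of the 6 factors. It had 7.51, 9.28 and 7.96 TPM with control siRNA and 6.9, 7.72 and 6.34 with HOTAIR-N siRNA. Only HOTAIR-N replicate 2 reached into the control range. Its log2 fold change was -0.19 (SE 0.09, 95% interval -0.39 to -0.0037), and it did not pass after adjustment (edgeR adjusted p = 0.0755). SOX9 passed when control replicate 1 was left out (-0.24, edgeR adjusted p = 0.0312) or when HOTAIR-N replicate 2 was left out (-0.27, edgeR adjusted p = 0.0339). The difference was smaller without control replicate 2 (-0.13, edgeR adjusted p = 0.278) or HOTAIR-N replicate 3 (-0.12, edgeR adjusted p = 0.330).

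ABCA3, the lamellar body lipid pump, was the most abundant alveolar marker and rose. Its TPM was 5.7, 5.63 and 4.54 with control siRNA and 7.42, 8.02 and 8.29 with HOTAIR-N siRNA, resting on 554 to 1010 counts per library. The nearest libraries of the groups were control replicate 1 and HOTAIR-N replicate 1, and control replicate 3 was the lowest. The mean went from 5.29 ± 0.65 to 7.91 ± 0.45 TPM (SD, n = 3 each), and the log2 fold change was 0.62 (SE 0.09, 95% interval 0.44 to 0.81, edgeR adjusted p = 2.26e-05). Without control replicate 1 it was 0.71 (edgeR adjusted p = 1.72e-06), and without control replicate 3 it was 0.53 (edgeR adjusted p = 7.03e-05). The rise did not exceed a fold of 1.5 by a test (edgeR adjusted p = 0.710).

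LAMP3, the lamellar body membrane protein, had 1.1, 1.84 and 1.25 TPM with control siRNA and 2.19, 1.97 and 2.22 with HOTAIR-N siRNA. Control replicate 2 came near the HOTAIR-N siRNA libraries, while the other controls were well below them. The mean went from 1.40 ± 0.39 to 2.13 ± 0.14 TPM (SD, n = 3 each), and the log2 fold change was 0.66 (SE 0.16, 95% interval 0.32 to 1.00, edgeR adjusted p = 0.00249). Without control replicate 1 it was 0.53 (edgeR adjusted p = 0.00956). Against a fold of 1.5 it did not pass either (edgeR adjusted p = 0.692).

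SFTPB, one of the hydrophobic surfactant proteins and a textbook NKX2-1 target, was nearly absent in both groups. It had 0, 1 and 1 counts with control siRNA and 2, 3 and 0 with HOTAIR-N siRNA. No library is above 3 counts, so no fold is given, and a difference was not detectable at this depth.

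**Figure D2:**
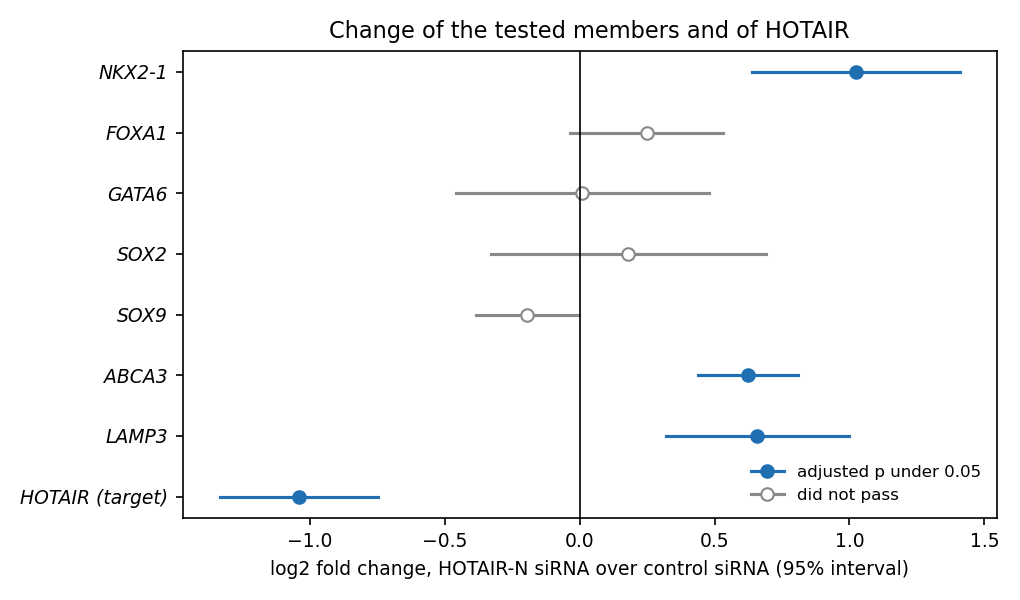
Log2 fold change of HOTAIR-N siRNA over control siRNA with its 95% interval for the 7 tested genes and for HOTAIR, from the edgeR fit over all genes. NKX2-1, ABCA3 and LAMP3 lie above 0 with intervals from 0.32 to 1.41, HOTAIR lies below 0 at -1.04, and the open points did not pass.

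The order of the genes by TPM differed between the siRNAs. With control siRNA the order of mean TPM was SOX9, ABCA3, FOXA1, LAMP3, NKX2-1, GATA6, SOX2, FOXA2 and SFTPB. The ranges of FOXA1 and LAMP3, of LAMP3 and NKX2-1, and of GATA6 and SOX2 overlapped, so their places cannot be separated. With HOTAIR-N siRNA it was ABCA3, SOX9, NKX2-1, FOXA1, LAMP3, GATA6, SOX2, FOXA2 and SFTPB, where ABCA3 and SOX9, NKX2-1 and FOXA1, FOXA1 and LAMP3, GATA6 and SOX2, and FOXA2 and SFTPB overlapped. Within single libraries SOX9 was above ABCA3 in all 3 controls and ABCA3 was above SOX9 in all 3 HOTAIR-N siRNA libraries. NKX2-1 was below FOXA1 in all controls and in HOTAIR-N replicate 1, and above it in HOTAIR-N replicates 2 and 3. Control replicate 2 had the highest control TPM for NKX2-1, GATA6, SOX2, SOX9 and LAMP3, but not for FOXA1, FOXA2 or ABCA3.

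The isoform tables list 12 isoforms of the 9 genes, of which 8 were tested, 1 rose and 7 did not pass, beside 19.5% called of 32627 isoforms tested. The isoform that rose was NM_001089, the single isoform of ABCA3 (log2 fold change 0.63, SE 0.11, edgeR adjusted p = 0.0138). It no longer passed without HOTAIR-N replicate 2 (edgeR adjusted p = 0.0533) or 3 (edgeR adjusted p = 0.0568). LAMP3's single isoform NM_014398 had a log2 fold change of 0.67 and did not pass in the isoform fit (edgeR adjusted p = 0.117). For FOXA2 all counts were assigned to NM_153675 and none to NM_021784.

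NKX2-1 is listed with a pair of isoforms with different start sites, the ones whose nearest promoter windows are printed above. NM_003317 had 39.44, 32.98 and 43.41 expected counts with control siRNA and 67.71, 77.93 and 66.92 with HOTAIR-N siRNA, without overlap. Its log2 fold change was 0.95 (SE 0.26, edgeR adjusted p = 0.0565), just short of the threshold. NM_001079668 had 7.35, 23.57 and 0 expected counts with control siRNA and 6.53, 19.16 and 52.72 with HOTAIR-N siRNA, and its log2 fold change of 1.34 had an SE of 1.49 (edgeR adjusted p = 0.63). Its percent of the gene, as deposited, was 16.72, 43.5 and 0 with control siRNA and 9.41, 20.94 and 45.9 with HOTAIR-N siRNA. The division of reads between the isoforms thus varied as much within a group as between groups. The high NKX2-1 value of HOTAIR-N replicate 3 came with the largest NM_001079668 count, while its NM_003317 count was the lowest of its group.

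The antisense gene NKX2-1-AS1 (NR_103710), which overlaps this locus, had 5.21, 2.46 and 2.59 expected counts with control siRNA and 3.77, 10.9 and 15.36 with HOTAIR-N siRNA, and was too low to be tested. HOTAIR-N replicates 2 and 3 were highest for both NKX2-1 and NKX2-1-AS1. The kit is stranded, but whether the counting used strand is not stated in the sources used here, so reads of this pair cannot be told apart.

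**Figure D3:**
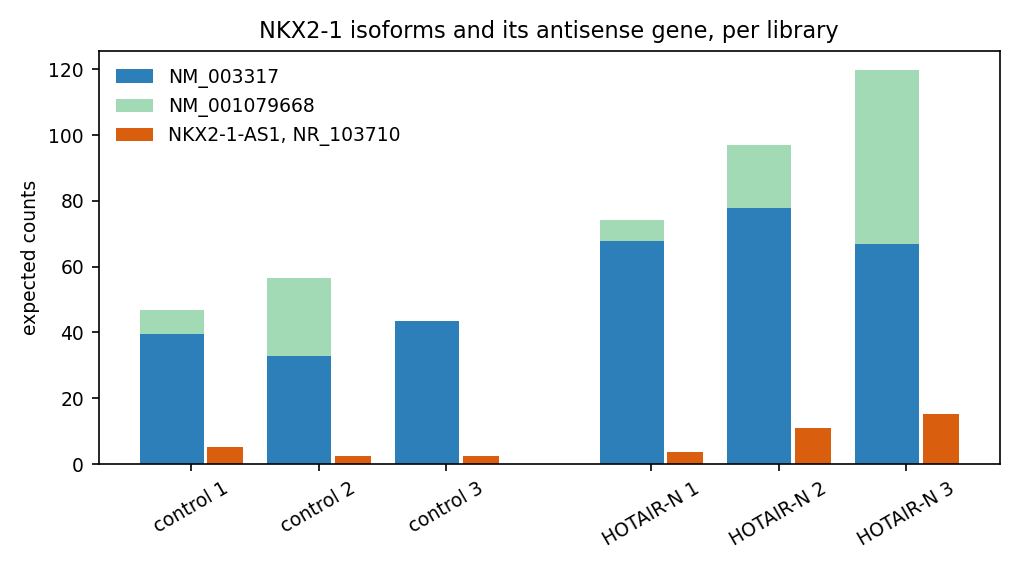
Expected counts per library of the NKX2-1 isoforms NM_003317 and NM_001079668, stacked, with NKX2-1-AS1 in the bar beside them. The stacked totals are 43.41 to 56.54 with control siRNA and 74.23 to 119.64 with HOTAIR-N siRNA, and the upper part of the stack varies from 0 to 52.72.

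Genes that overlap or neighbour the 9 genes moved in both directions. Of 16 listed, 6 were tested, 2 rose, 3 fell and 1 did not pass. Of all tested genes, 28.7% rose and 28.8% fell. NKX2-8, a homeobox gene beside NKX2-1, also rose, from 3.54 ± 0.55 to 5.50 ± 0.95 TPM (SD, n = 3 each, log2 fold change 0.68, SE 0.15, edgeR adjusted p = 0.00142). MIPOL1, near FOXA1 on chromosome 14, fell by 0.79 (edgeR adjusted p = 1.62e-06). CCNF beside ABCA3 fell by 0.45 (edgeR adjusted p = 5.93e-05), and the ABCA3 neighbour ABCA17P, a pseudogene of the same family, had -0.80 and did not pass (edgeR adjusted p = 0.0771). MCCC1 beside LAMP3 rose by 0.24 (edgeR adjusted p = 0.0272), and USP39 near SFTPB fell by 0.36 (edgeR adjusted p = 3.13e-05). The other 10 were not tested: over 3 libraries each, counts with control siRNA and with HOTAIR-N siRNA were 6 and 0 for SFTA3, 3 and 0 for SOX2-OT, 14 and 7 for SOX9-AS1 and 5 and 0 for LINC00511. They were 3 and 3 for GATA6-AS1, 1 and 0 for LINC00261, 24 and 20 for TTC6, 27 and 27 for MCF2L2, 1 and 0 for GNLY and 10 and 30 for NKX2-1-AS1.

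The alveolar identity that ABCA3, LAMP3 and SFTPB stand for in tissue was not found in these cells as a whole. Of 21 other alveolar type 2 markers, 14 had a mean below 0.1 TPM, and the surfactant protein genes were at or near 0: over 3 control and 3 HOTAIR-N siRNA libraries SFTPA1 had no count, SFTPA2 had 2 and 0, SFTPC 1 and 0, and SFTPD 2 and 10. NAPSA, the protease that processes surfactant protein B and is under NKX2-1 in type 2 cells, stood at 0.42 ± 0.01 and 0.59 ± 0.11 TPM (SD, n = 3 each) and did not pass (log2 fold change 0.53, edgeR adjusted p = 0.153). Others of the list were expressed. With control siRNA the mean was 16.6 TPM for MUC1, 16.3 for CTSH, 14.5 for LPCAT1 and 5.71 for MFSD2A, beside 5.29 for ABCA3. MUC1 did not pass (log2 fold change -0.14, edgeR adjusted p = 0.139). Of the 7 of these markers tested, 2 rose, 2 fell and 3 did not pass, with a median log2 fold change of -0.05. The shares over all tested genes were 28.7% and 28.8%. MFSD2A, a lysolipid transporter, rose by 0.91 (SE 0.09, edgeR adjusted p = 5.72e-07), and CTSH, a cathepsin, rose by 0.29 (SE 0.08, edgeR adjusted p = 0.00509). LPCAT1, which makes surfactant phosphatidylcholine, fell by 0.36 (SE 0.07, edgeR adjusted p = 0.000363), and the FGF receptor gene FGFR2 fell by 0.35 (SE 0.11, edgeR adjusted p = 0.0151). The name alveolar marker is therefore used for a group of genes and not for the state of the cells.

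The genes of lamellar bodies and surfactant lipid, the setting in which ABCA3 and LAMP3 work, included 6 that rose, 7 that fell and 11 that did not pass of 24 tested, with a median log2 fold change of 0.02. These shares are near those of all tested genes, of which 28.7% rose and 28.8% fell. SCD, the fatty acid desaturase, rose by 0.52 and the acyl-CoA synthetase ACSL4 by 0.51. PCYT1A, the rate-limiting enzyme of phosphatidylcholine synthesis, fell by 0.67, and PEMT, which makes the same lipid by methylation, fell by 0.88. The edgeR adjusted p of these 4 was between 4.53e-07 and 1.94e-05.

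Of 37 other transcription factors of lung epithelium tested, 12 rose, 11 fell and 14 did not pass, with a median log2 fold change of 0.12, again near the shares over all tested genes. CEBPD, a C/EBP factor of stress and glucocorticoid responses, rose from 6.76 ± 0.49 to 16.4 ± 0.90 TPM (SD, n = 3 each, log2 fold change 1.33, edgeR adjusted p = 2.96e-08), and STAT3, which relays cytokine signals, rose by 0.47 (edgeR adjusted p = 8.78e-07). The ETS factor ETV5 fell by 0.73 (edgeR adjusted p = 2.35e-07) and the retinoic acid receptor RARG by 0.54 (edgeR adjusted p = 3.49e-06). Of the ETV5 relatives listed, ETV4 rose by 0.44 (edgeR adjusted p = 6.45e-06) and ETV1 fell by 0.42 (edgeR adjusted p = 0.000526). Among relatives of the 9 genes by family, 10 of 28 tested rose, 6 fell and 12 did not pass, with a median of 0.05. ABCA7, a transporter of the ABCA3 family, rose by 0.80 (edgeR adjusted p = 1.91e-07) and GATA4 by 0.47 (edgeR adjusted p = 0.000327), while NKX2-5, the cardiac relative of NKX2-1, fell by 0.83 (edgeR adjusted p = 0.000165) and GATA2 by 0.46 (edgeR adjusted p = 4.39e-05).

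Of the signals that pattern the lung, 7 of 18 tested genes rose and 8 fell, with 3 that did not pass and a median of -0.07. Over all tested genes 28.7% rose and 28.8% fell. GLI1, the transcriptional target and effector of hedgehog signalling, rose from 1.83 ± 0.14 to 4.42 ± 0.22 TPM (SD, n = 3 each, log2 fold change 1.33, edgeR adjusted p = 4.01e-08). The hedgehog ligand SHH rose by 0.62 (edgeR adjusted p = 4.13e-05) and its receptor PTCH1 by 0.32 (edgeR adjusted p = 0.0005). In the same pathway the factor GLI3 fell by 1.15 (edgeR adjusted p = 1.03e-05), and the signal transducer SMO (0.14) and the factor GLI2 (-0.25) did not pass. Among the FGF receptors, FGFR4 rose by 0.71 (edgeR adjusted p = 1.54e-06). In contrast, FGFR1 fell by 0.30 (edgeR adjusted p = 0.00137), FGFR2 by 0.35 (edgeR adjusted p = 0.0151) and FGFR3 by 0.35 (edgeR adjusted p = 0.0335). The BMP receptors BMPR1A and BMPR2 fell by 0.78 (edgeR adjusted p = 4.41e-07) and 0.52 (edgeR adjusted p = 6.42e-06), while BMP4 rose by 0.47 (edgeR adjusted p = 0.0105).

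**Figure D4:**
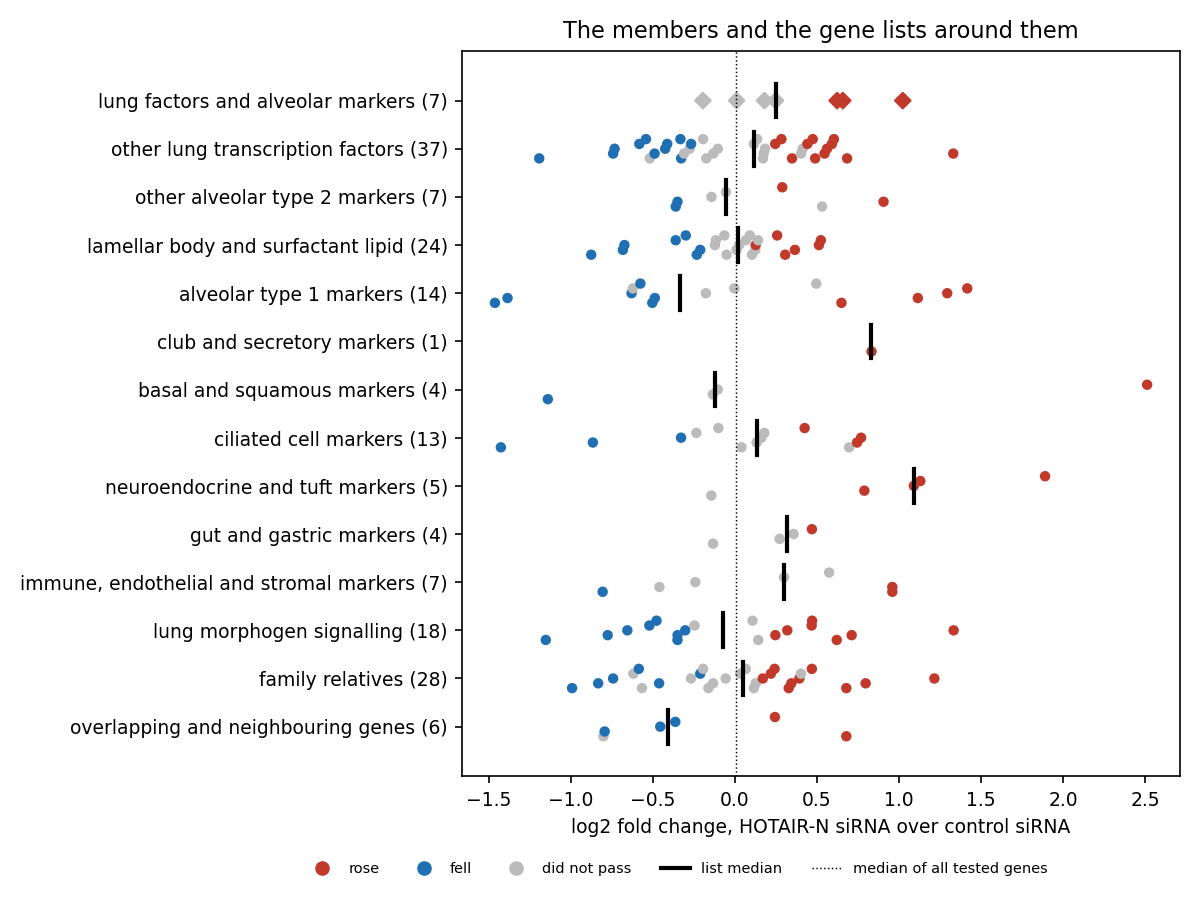
Log2 fold change of each tested gene in the 9-gene group (diamonds) and in 13 lists around it (circles), with the number tested in brackets, the list median as a vertical bar and the median of all tested genes as a dotted line. Most lists spread over both sides of 0, and 4 of the 5 tested neuroendocrine and tuft markers lie between 0.79 and 1.89.

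Markers of other cell types were read beside these results. Several markers used for alveolar type 1 cells were at or near 0: over 3 control and 3 HOTAIR-N siRNA libraries PDPN had no count, AQP5 had 5 and 5, CLIC5 2 and 0, and HOPX 4 and 12. Others of the list were expressed. AGER stood at 2.67 ± 0.14 and 2.57 ± 0.44 TPM (SD, n = 3 each) and did not pass (edgeR adjusted p = 0.989). RTKN2 stood at 3.82 ± 0.72 and 3.04 ± 0.16 TPM and fell by 0.58 (edgeR adjusted p = 0.000405). Beside 28.7% of all tested genes that rose and 28.8% that fell, 4 of 14 genes tested in that list rose and 6 fell. Another 4 did not pass, and the median was -0.33. The abundant members were CAV1, IGFBP2, GPRC5A, VEGFA and CAV2, which are also expressed outside the lung, and the list had a summed level of 708.13 to 741.58 TPM in control and 973.11 to 1009.51 TPM in HOTAIR-N siRNA libraries. CAV1, the coat protein of caveolae, fell from 285.4 ± 21.7 to 105.2 ± 2.22 TPM, while its partner CAV2 rose by 1.29, GPRC5A by 1.11 and IGFBP2 by 1.42 (edgeR adjusted p of all 4 from 7.21e-11 to 4.41e-10). The neuroendocrine and tuft list had 4 of 5 tested genes higher, beside 28.7% of all tested genes. That list had a summed level of 409.17 to 426.94 TPM in control and 831.24 to 885.61 TPM in HOTAIR-N siRNA libraries. In it SYP rose by 1.89, CHGB by 1.13, UCHL1 by 1.09 and ENO2 by 0.79 (edgeR adjusted p from 1.44e-10 to 5.36e-08), while 8 of the 13 listed were below 0.1 TPM. The part of these genes in the rise of NKX2-1, ABCA3 and LAMP3 was not tested.

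Club and secretory markers were at or near 0, with 13 of 16 below 0.1 TPM, no count of SCGB1A1 and 1 gene tested, WFDC2, which rose by 0.83 (edgeR adjusted p = 0.0133). Of the basal and squamous markers 4 of 12 were tested: NGFR rose by 2.51 (edgeR adjusted p = 2.04e-09), KRT15 fell by 1.14 (edgeR adjusted p = 0.000966), and ITGA6 (-0.10) and S100A2 (-0.13) did not pass. TP63 had 16 and 11 counts over 3 libraries each and KRT5 0 and 1. Ciliated cell markers had 3 of 13 tested genes higher, 3 lower and 7 that did not pass, beside 28.7% and 28.8% of all tested genes. FOXJ1, their defining factor, was higher than any of the 9 genes at 20.5 ± 2.78 and 20.5 ± 1.55 TPM (SD, n = 3 each, log2 fold change 0.04, edgeR adjusted p = 0.737). In that list CCDC40 rose by 0.77 and CCNO by 0.74, and DNAH5 fell by 1.43 and RFX2 by 0.87. Of the gut and gastric markers, 1 of 4 tested rose (GATA4) and 3 did not pass, among them CDX2 with a log2 fold change of 0.27 (edgeR adjusted p = 0.0622) and GATA5 with -0.13. HNF4A had 2 counts and 1 count. CDX2 was at 2.04 ± 0.21 and 2.39 ± 0.19 TPM (SD, n = 3 each). Of 7 immune, endothelial and stromal markers tested, 2 rose, 1 fell and 4 did not pass, with a median of 0.30. The list summed to 16.42 to 17.32 TPM in control and 11.5 to 13.67 TPM in HOTAIR-N siRNA libraries. In that sum ACTA2 alone went from 11.7 ± 0.49 to 6.21 ± 0.62 TPM (SD, n = 3 each). PTPRC had 1 and 1 counts and PECAM1 3 and 0, while LUM rose by 0.96, ACTA2 fell by 0.81, and CD14 (-0.24) and PDGFRA (0.30) did not pass.

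**Figure D5:**
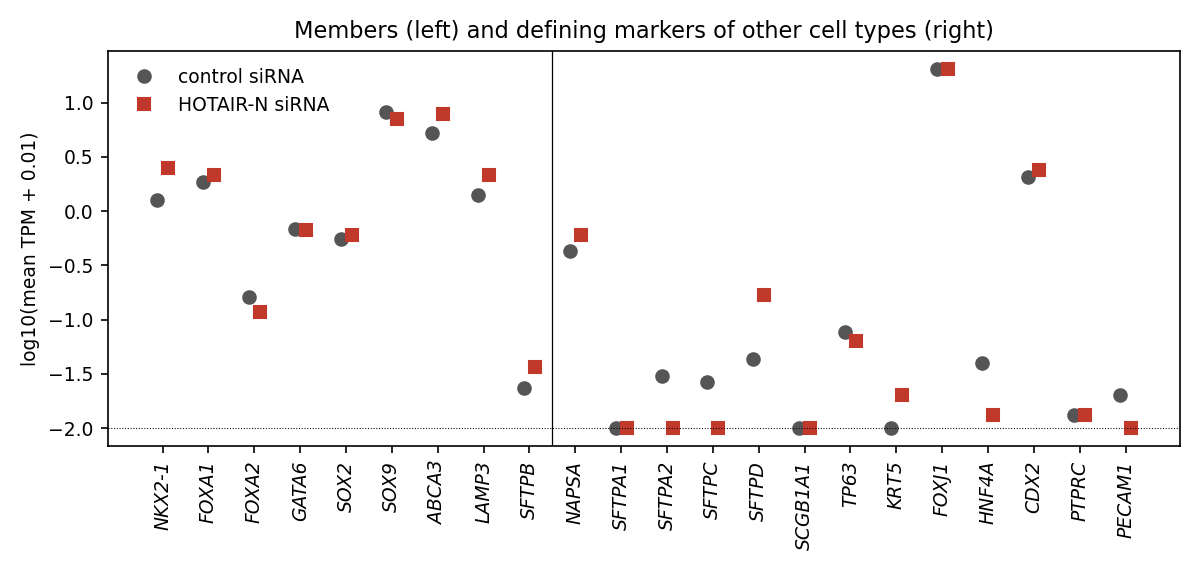
Mean TPM of the 9 genes and of the defining markers of alveolar and other cell types, for each siRNA, as log10 of the mean TPM plus 0.01, so that the dotted line stands for 0 TPM. FOXJ1 at 20.5 TPM lies above all 9 genes, and CDX2 lies at 2.04 and 2.39 TPM. The surfactant protein genes lie at or below 0.16 TPM, the mean of SFTPD with HOTAIR-N siRNA.

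The genes whose log2 CPM ran most like each of the 3 genes that rose were found among 12324 genes over the 6 libraries. For NKX2-1 they were SLC48A1 and ASPHD2 (Pearson r of 0.989 and 0.988). For ABCA3 they were FGD1 and DISP2 (0.999 and 0.998), and for LAMP3 they were PCNX1 and KIAA0368 (0.997 and 0.992). An r above 0.95 was reached by 269, 873 and 203 genes. All 6 points share the difference between the siRNAs, so the values are a description.

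Short words in transcripts that earlier work on these data had related to the fold changes were also counted for the 9 genes. In each gene 1 transcript of GENCODE release 29 was searched, the longest coding one with a RefSeq match. GACCAAT was in none of the 9, where 13.04% of 13362 genes hold it. ACCAATA occurred once each in GATA6 and SOX2, where 13.94% of genes hold it, and GAATATA once in FOXA2 (20.78% of genes). TGAATAT was in none (27.91% of genes). The transcripts searched for NKX2-1, ABCA3, LAMP3, SOX9, FOXA1 and SFTPB held none of the 4 words. For FOXA1 that transcript had 2862 nt where the counted isoform NM_004496 has 3380 nt. For SFTPB it had 1867 nt where NM_000542 has 3667 nt, so part of these isoforms was not searched.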

How the data were processed

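RNA-seq libraries (stranded total RNA, ribosomal RNA removed, per the labels' protocols) were aligned and counted by the authors with STAR 2.6.0c and RSEM 1.3.0 on hg19, per the submitters' processing notes. The deposited tables give expected counts (estimated reads per gene or isoform, 10.9% of gene values not whole), TPM, FPKM and the percent of its gene each isoform makes up, as the authors' program wrote them. The sources used here give neither the annotation release nor the strand setting. Expected counts were rounded and tested over all genes with edgeR 4.0.16 (filterByExpr, TMM, robust quasi-likelihood test, Benjamini-Hochberg, threshold 0.05) in R 4.3.3. The steps were tested on simulated data. A positive log2 fold change means higher with HOTAIR-N siRNA, and SD is over 3 transfections.

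The 9 genes and the lists were chosen with earlier results of these data known. Named are the 9 genes, HOTAIR, the neighbouring genes, 14 defining markers, up to 4 genes per list with the smallest p (mean log2 CPM of at least 0) and the 2 genes most like each gene that rose (mean log2 CPM of at least 1). Some genes that this rule takes are left out of the text. SHH, PTCH1, GLI2, GLI3, SMO, FGFR1, FGFR3, BMP4, WFDC2, KRT15, VEGFA, PDPN, AQP5, CLIC5, HOPX, AGER, RTKN2, ETV1, ETV4 and MUC1 were named after their values were seen. Alternatives used DESeq2 1.42.0 and limma 3.58.1 among others.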

Additional observations from a re-analysis of the deposited data

How the results depend on the processing

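The rise of NKX2-1, ABCA3 and LAMP3 held its direction under every alternative run: other scalings, filters, genes under 200 nt left out, the replicate block, DESeq2, limma-voom, limma on log2(TPM + 0.1) and log2(TPM + 1), and each library left out. Log2 fold changes ranged from 0.62 to 1.16 for NKX2-1, 0.51 to 0.71 for ABCA3 and 0.39 to 0.87 for LAMP3, and all 3 passed except in the test against a fold of 1.5. That test called 1700 genes in place of 8672 (830 rose, 870 fell) and 1 of the 9 genes, since it asks for a larger change. With single libraries left out, 0 to 1 of the 9 genes fell (SOX9) and 0 to 1 isoforms were called. GATA6 changed sign with single libraries left out (-0.16, -0.06, -0.04 and -0.0077, range -0.16 to 0.29) and under limma on log2(TPM + 1) (-0.0061), and so did its isoform NM_005257 (-0.17, -0.06, -0.04 and -0.0026, range -0.17 to 0.30), always far from the threshold. Without the filter FOXA2 had a log2 fold change of -0.49 (SE 0.57, edgeR adjusted p = 0.509). Same-numbered libraries did not deviate together (r of -0.26, 0.07 and -0.12 over 12325 genes), which gave no sign that the numbers pair the samples. Not every library correlated best with its own number. The values largest in size were those of control replicate 3 with HOTAIR-N replicate 1 (r of 0.46) and with HOTAIR-N replicate 2 (-0.38). What these libraries share was not tested. Deviations from a mean of 3 libraries are bound to each other, so a weak pairing could not be seen. With the replicate block 7984 genes were called, 3 of the 9 genes rose, none fell, and 0 isoforms were called (NM_001089, edgeR adjusted p = 0.083). Gut and gastric markers had 2 genes that rose with upper-quartile or no scaling and with the stricter filter. That filter, which tests fewer genes, left 0 club genes that rose in place of 1 (WFDC2), 0 basal genes that fell in place of 1 (KRT15) and 1 immune, endothelial or stromal gene that rose in place of 2. The order of the 9 genes in the control group was the same in FPKM. Depth limits FOXA2 and SFTPB, and GATA6 and SOX2 rest on 20 to 59 counts per library.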
